A study of Mus musculus with 2 samples.

Results

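The 8 genes described here encode cyclin-dependent kinase inhibitors and members of the p53 family. They are the CIP/KIP inhibitors Cdkn1a (p21) and Cdkn1b (p27), the INK4 inhibitors Cdkn2a (p16Ink4a, with the alternative product p19Arf), Cdkn2b (p15), Cdkn2c (p18) and Cdkn2d (p19Ink4d), and the transcription factors Trp53 (p53) and Trp73 (p73). They were chosen by name from 21631 protein-coding genes that RefSeq places on the 20 chromosomes with peaks, and a Suz12 peak was assigned to a gene when it overlapped the gene or lay within 10 kb of its outer ends. Where no peak met this rule, the nearest peak is given.

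Inhibitors of the CIP/KIP family bind complexes of cyclins and cyclin-dependent kinases, whereas INK4 proteins bind the kinases CDK4 and CDK6, and both slow entry into DNA synthesis. p53 activates Cdkn1a and other genes after DNA damage, and p19Arf stabilises p53 by blocking its ubiquitin ligase Mdm2. Suz12 is a core subunit of Polycomb Repressive Complex 2, which methylates lysine 27 of histone H3 and is best known at silent genes with CpG-rich starts. The Cdkn2a-Cdkn2b locus is a long-studied Polycomb target in fibroblasts and other cell types.

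Suz12 was mapped by chromatin immunoprecipitation and sequencing in wild-type E14 mouse embryonic stem cells that had been moved from serum medium with leukemia inhibitory factor to the same kind of medium without that factor for 72 h, with all-trans-retinoic acid added at 1 µM. The series also has a library of Suz12 -/- cells in serum at 0 h, made with the same antibody, which was not analysed here. Each of the 2 groups has 1 library and they differ in genotype and time together, so no comparison between groups was made and no value carries a replicate error. The deposited list holds 3373 peaks, 318 to 20581 bp wide with a median of 1849 bp, and gives each a score from 150.3 to 3233 with a median of 572. No header states what the score measures, and 325 peaks share the value 3100. The scores are the authors' and serve here only to place a peak within the list. Reads are not part of the list, so the depth is unknown, and Suz12 below the authors' threshold would go unseen at genes that have no peak.

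Of the 8 genes, 4 had a Suz12 peak within 10 kb, namely Cdkn1a, Cdkn2a, Cdkn2c and Trp73, and each of these 4 was overlapped by a peak. By the same rule 15.9% of all protein-coding genes had a peak (3437 of 21631, exact 95% binomial interval 15.4 to 16.4%), and 12.3% were overlapped by one. The count of 4 of 8 (50%, interval 15.7 to 84.3%) rests on few genes, and its interval, which covers counting error only, includes 15.9%. That value lies just inside the lower end. Counted by overlap the result was again 4 of 8, and the share of 12.3% lies below the interval. The reading therefore depends on the limit. The genes were also chosen with earlier results of these data known, so neither comparison can tell whether peaks were more frequent at them. The other 4 genes, Cdkn1b, Cdkn2b, Cdkn2d and Trp53, lay between 12.3 and 287 kb from their nearest peak. The limit of 10 kb fell between Cdkn2c, whose second peak was 1398 bp away, and Trp53 at 12.3 kb.

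RefSeq gave 12 annotated starts for the 8 genes, 2 each for Cdkn1a, Cdkn2a, Cdkn2c and Trp73 and 1 each for the others. Of the 12, 3 lay inside a peak, and the share of all annotated starts inside a peak was not computed. A window of 300 bases was taken at each start, 250 before it and 50 from it on. A peak touched 4 of these 12 windows, against 8.22% of the 21045 windows of all protein-coding genes. The starts of Trp73, Cdkn1a, Cdkn2a and Cdkn2c are shown because these genes have 2 alternative starts of unlike sequence, of which a peak contained the one richer in CpG (Trp73 and Cdkn1a), the one poorer in CpG (Cdkn2c) or neither (Cdkn2a), and that of Cdkn1b because it is rich in CpG and far from any peak. Each line gives the 250 bases before the start, 5′ to 3′ on the gene's strand, from the GRCm38.p6 reference of RefSeq, which is of the C57BL/6J strain and not of the E14 cells. Capitals mark CpG dinucleotides, except in the line of the first Cdkn1a start, where they mark a p53 response element. In order, the stretches are chr4:154139876-154140125 and chr4:154097174-154097423 (both minus strand), chr17:29090729-29090978 and chr17:29093519-29093768 (both plus strand), chr4:89294620-89294869 and chr4:89282193-89282442 (both minus strand), chr4:109666757-109667006 and chr4:109665373-109665622 (both minus strand), and chr6:134920151-134920400 (plus strand).
Trp73 first start: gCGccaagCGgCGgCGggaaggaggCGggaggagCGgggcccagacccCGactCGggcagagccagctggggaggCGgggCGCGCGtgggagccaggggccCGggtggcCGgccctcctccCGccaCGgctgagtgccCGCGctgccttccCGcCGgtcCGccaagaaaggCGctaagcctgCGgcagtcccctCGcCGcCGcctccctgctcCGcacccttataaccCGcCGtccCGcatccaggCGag
Trp73 second start: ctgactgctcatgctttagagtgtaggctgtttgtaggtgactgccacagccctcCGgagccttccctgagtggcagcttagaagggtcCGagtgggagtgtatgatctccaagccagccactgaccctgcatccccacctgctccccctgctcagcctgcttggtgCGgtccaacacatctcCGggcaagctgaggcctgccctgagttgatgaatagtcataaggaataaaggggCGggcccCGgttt
Cdkn1a first start: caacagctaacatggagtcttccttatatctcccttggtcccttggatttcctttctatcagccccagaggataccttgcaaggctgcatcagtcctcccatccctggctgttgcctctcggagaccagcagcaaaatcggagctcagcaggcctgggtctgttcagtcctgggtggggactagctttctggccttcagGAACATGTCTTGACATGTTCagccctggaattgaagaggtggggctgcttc
Cdkn1a second start: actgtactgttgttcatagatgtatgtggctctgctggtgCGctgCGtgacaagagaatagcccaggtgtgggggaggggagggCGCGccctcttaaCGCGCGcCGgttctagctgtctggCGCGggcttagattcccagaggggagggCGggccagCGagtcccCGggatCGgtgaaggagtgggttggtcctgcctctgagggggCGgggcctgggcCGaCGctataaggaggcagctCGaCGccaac
Cdkn2a first start: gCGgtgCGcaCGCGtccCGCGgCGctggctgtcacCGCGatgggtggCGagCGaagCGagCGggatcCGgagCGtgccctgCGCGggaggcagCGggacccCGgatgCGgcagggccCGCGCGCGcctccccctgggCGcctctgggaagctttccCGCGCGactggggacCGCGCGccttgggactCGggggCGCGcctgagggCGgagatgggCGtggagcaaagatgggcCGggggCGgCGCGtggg
Cdkn2a second start: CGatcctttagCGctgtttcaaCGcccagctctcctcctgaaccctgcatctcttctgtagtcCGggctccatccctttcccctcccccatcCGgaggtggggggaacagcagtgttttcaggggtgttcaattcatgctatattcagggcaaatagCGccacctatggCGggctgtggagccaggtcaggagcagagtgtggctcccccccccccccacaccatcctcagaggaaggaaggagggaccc
Cdkn2c first start: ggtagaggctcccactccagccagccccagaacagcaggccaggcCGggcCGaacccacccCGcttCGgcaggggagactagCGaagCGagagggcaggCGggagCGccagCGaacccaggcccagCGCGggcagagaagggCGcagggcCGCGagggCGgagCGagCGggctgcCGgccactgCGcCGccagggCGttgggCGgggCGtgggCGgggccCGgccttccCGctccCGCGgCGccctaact
Cdkn2c second start: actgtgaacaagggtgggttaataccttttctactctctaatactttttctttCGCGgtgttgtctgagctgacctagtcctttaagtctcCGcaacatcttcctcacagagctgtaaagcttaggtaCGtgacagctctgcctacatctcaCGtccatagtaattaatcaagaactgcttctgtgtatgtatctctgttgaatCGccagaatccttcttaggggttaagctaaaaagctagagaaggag
Cdkn1b start: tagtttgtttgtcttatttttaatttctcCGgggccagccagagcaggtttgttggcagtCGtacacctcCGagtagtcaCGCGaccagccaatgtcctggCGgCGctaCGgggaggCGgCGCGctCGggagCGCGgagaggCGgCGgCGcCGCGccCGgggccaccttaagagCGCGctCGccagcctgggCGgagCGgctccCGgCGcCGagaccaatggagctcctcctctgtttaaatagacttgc

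Among the p53 family genes, Trp73 carried the highest-scoring peak of the 8 genes and Trp53 had none within 10 kb. The Trp73 gene spans chr4:154056249-154139875 on GRCm38 and is read from its high to its low coordinate. Its peak, chr4:154138701-154142620, was 3920 bp wide with a score of 3100, the value that 325 peaks share. It scored above 89.5% of all peaks and was wider than 88.9% of them. Of its length, 1175 bp lay inside Trp73 and 2745 bp before the gene. The peak contained the first start, from which the longer forms of p73 with a transactivation domain (TAp73) are made, and its whole 300-base window of 250 bases before and 50 from the start on. The second start, inside the gene and known as the origin of the truncated ΔNp73 forms, was 41.5 kb from the peak and 42702 bp downstream of the first. The first window held 39 CpG, more than 94.1% of the 21045 windows of protein-coding genes, and the second held 6, which 31.7% of windows fell below. The next peak was 494 kb away at Prdm16.

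The peak at Trp73 also reached the neighbouring gene Wrap73, a WD-repeat gene read in the opposite direction. The start of Wrap73 lay 2497 bp from the first start of Trp73 and inside the same peak, so the signal cannot be assigned to 1 of the 2 genes from its position. Trp53 has a similar head-to-head neighbour, the WD-repeat gene Wrap53, whose start was 109 bp from that of Trp53. Neither gene of this pair had a peak within 10 kb. The nearest, chr11:69604196-69606125 with a score of 708, lay 12.3 kb beyond the far end of Trp53 (chr11:69580348-69591873) and 23.8 kb from its start. That peak overlapped an end of Atp1b2, which encodes a subunit of the sodium pump. The start window of Trp53 held 10 CpG, more than 42.7% of windows. Of all protein-coding genes, 16.7% were nearer to a peak than Trp53 was.

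Of the CIP/KIP genes, Cdkn1a had a low-scoring peak at its second start and Cdkn1b had none. The Cdkn1a gene spans chr17:29090979-29100722 and is read from its low coordinate. Its peak, chr17:29093647-29095390, was 1744 bp wide and lay wholly inside the gene, covering 17.9% of it. The score of 270.2 exceeded that of 23.6% of all peaks, and the peak was lost when scores of at least double the lowest were required, a limit of 300.6. The peak contained the second start and 57.3% of its window, which held 23 CpG, more than 70.7% of windows. The first start lay 2668 bp before the peak, and its window held 2 CpG, more than 11.1% of windows.

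The window of the first Cdkn1a start held a p53 response element, the sequence through which p53 binds DNA, beginning 51 bases before that start. It was searched on both strands as 2 adjoining copies of the p53 consensus, 20 letters in all, with at most 1 mismatch outside the central 4 letters of each copy. Of the 12 windows of the 8 genes it was in this 1 alone, and of all 21045 windows 9 (0.0428%) held it. None of these 9 windows was touched by a Suz12 peak (0%, interval up to 33.6%), a range that includes the 8.22% of all windows that were. A match describes the sequence and does not show that p53 was bound there. The long non-coding gene Trp53cor1 (lincRNA-p21), a p53 target in its own right, lies 11.9 kb before Cdkn1a and was 14.5 kb from the same peak.

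Cdkn1b, on chr6:134920401-134925525, was the gene farthest from a Suz12 peak. Its nearest peak, chr6:134631858-134632948, lay 287 kb before it at Mansc1 with a score of 242, and the next one 1246 kb beyond it. Of all protein-coding genes, 60.6% were nearer to a peak, and their median distance was 179 kb. The start window of Cdkn1b held 30 CpG, more than 84.4% of windows. The flanking non-coding gene Lockd, 3567 bp beyond Cdkn1b, was 296 kb from the same peak.

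**Figure D1:**
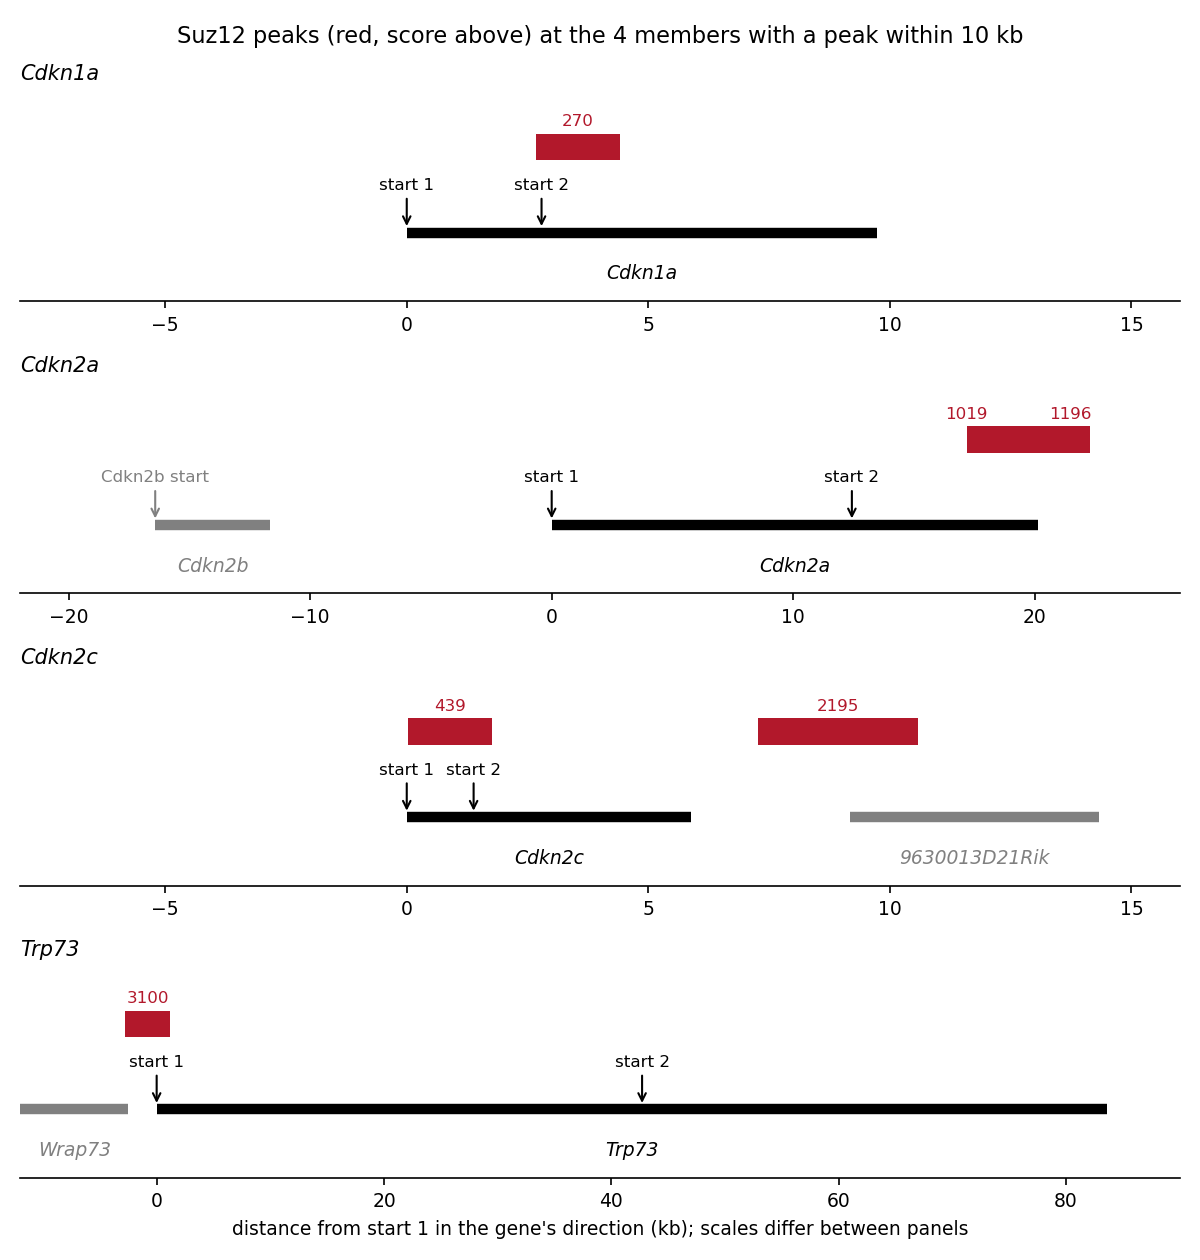
Maps of the 4 genes with a Suz12 peak within 10 kb, in the direction of the gene, with the distance from the first annotated start in kb on the horizontal axis. Black and grey bars are genes, arrows are starts and red boxes are peaks with the authors' score. The peaks lie over a start at Trp73, Cdkn1a and Cdkn2c (scores 3100, 270.2 and 439) and over the far end of Cdkn2a.

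At the INK4 locus on chromosome 4, called Suz12 peaks lay over the far end of Cdkn2a and over none of the 3 starts of Cdkn2a and Cdkn2b. Suz12 below the authors' threshold at these starts would go unseen. Cdkn2a spans chr4:89274473-89294619 and is read from its high coordinate. Its 2 peaks, chr4:89272339-89275680 (3342 bp, score 1196) and chr4:89275698-89277410 (1713 bp, score 1019), were 17 bp apart and together spanned 5072 bp. They covered the last 2921 bp of the gene apart from the gap, 14.5% of it, and 2134 bp beyond it. Their scores exceeded those of 71.8% and 68.1% of all peaks. The second start, which gives p16Ink4a, was 4782 bp from the nearer peak, and the first start, which gives p19Arf, was 17.2 kb from it. This arrangement was in the minority among genes overlapped by a peak, since 14% of the 1953 such genes with an annotated start had no start within 2.5 kb of a peak. Exons and introns are not in the table used, so the part of the transcripts under the peaks is not given.

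The 2 starts of Cdkn2a differed in sequence. The window of the first held 45 CpG, the most of the 12 windows and more than 97.5% of all windows, and the second held 12, more than 46.7%. The E2F motif, searched on both strands as TTTCCCGC, TTTCGCGC, TTTGCCGC or TTTGGCGC, occurred in the first Cdkn2a window, beginning 99 bases before the start, and in no other of the 12. Of all windows, 2.88% held it. E2F factors drive genes of DNA synthesis, and a match does not show that they bound.

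Cdkn2b, on chr4:89306289-89311032, lies 11.7 kb before the first start of Cdkn2a in the direction of reading and had no peak of its own. The nearest was the upstream of the 2 Cdkn2a peaks, 28.9 kb away and 33.6 kb from the Cdkn2b start. Its window held 18 CpG, more than 59.3% of windows. The non-coding gene Gm12610, which overlaps Cdkn2b and begins 561 bp from Cdkn2a, was 17.8 kb from that peak. The next protein-coding gene on the other side of the locus, Mtap, which salvages methylthioadenosine, ended 91.2 kb from the Cdkn2a peaks.

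Cdkn2c, on chr4:109660876-109666756 and read from its high coordinate, had 2 peaks. The first, chr4:109664998-109666738, was 1741 bp wide with a score of 439, above 40.7% of all peaks, and covered 29.6% of the gene, the largest share among the 8. It contained the second start and its whole window, with 8 CpG. It ended 18 bp short of the first start and touched 32 bases of its window, which held 33 CpG, more than 88.6% of windows. The sonicated fragments were longer than 18 bp, so whether the first start lay inside the Suz12-bound stretch was not resolved. The other peak, chr4:109656164-109659478, was 3315 bp wide with a score of 2195, above 84.2% of all peaks. It lay 1398 bp beyond the far end of Cdkn2c and contained the start of the non-coding gene 9630013D21Rik. The higher score near Cdkn2c therefore belongs to a peak that does not touch the gene.

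Cdkn2d, on chr9:21288459-21291421, lies in a gene-dense stretch and had no peak within 10 kb. The nearest, chr9:21311915-21312829, lay 20.5 kb away over the start of Ap1m2, an adaptor subunit of epithelial cells. Its score of 153 exceeded that of 21 of the 3373 peaks, so it was among the lowest in the list. On the other side the sphingosine-phosphate receptor gene S1pr5 had peaks at 39.2 and 42.5 kb from Cdkn2d, with scores of 506 and 2339. The Cdkn2d window held 22 CpG, more than 68.4% of windows, and Kri1, 490 bp from Cdkn2d, had no peak within 10 kb.

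**Figure D2:**
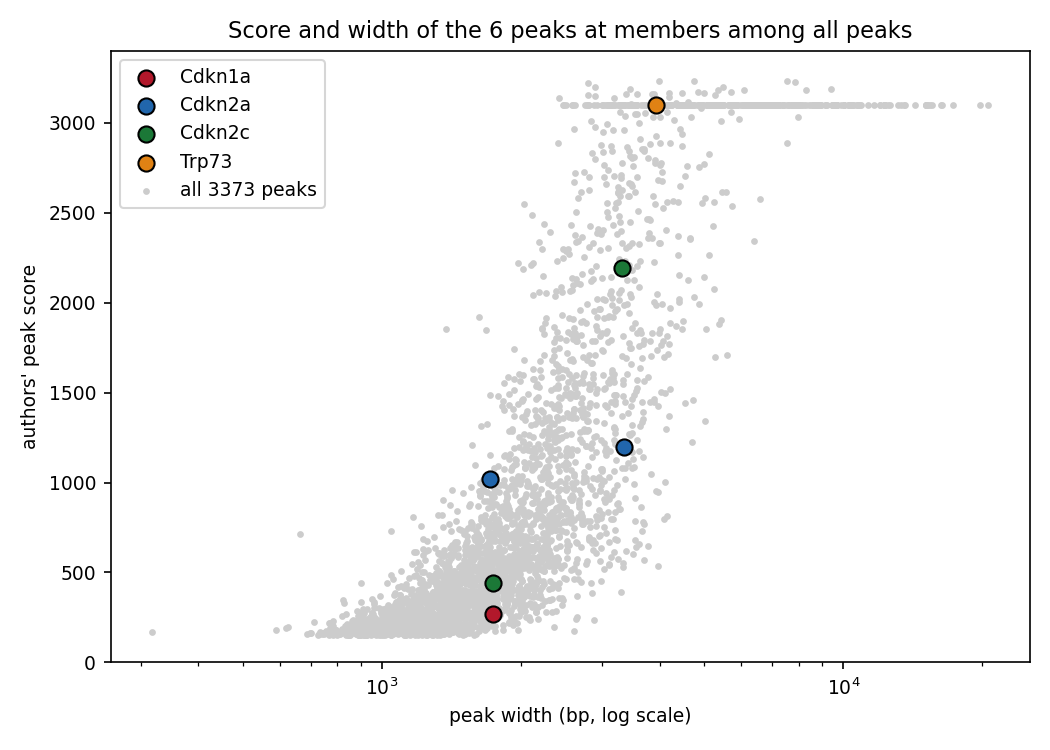
The authors' score against width in bp (log scale) for all 3373 peaks (grey) and for the 6 peaks within 10 kb of Cdkn1a, Cdkn2a, Cdkn2c or Trp73 (coloured). The peak at Cdkn1a, score 270.2, sits low in the list and that at Trp73 in the row of peaks at 3100.

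**Figure D3:**
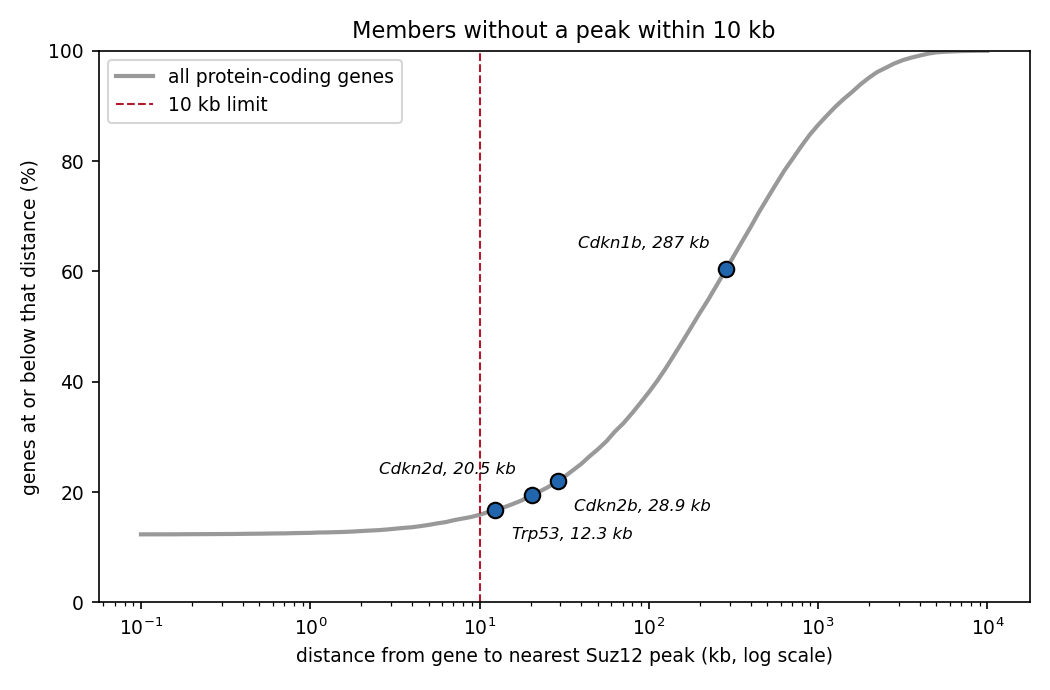
Percentage of all protein-coding genes (grey curve) at or below a given distance to the nearest Suz12 peak, in kb on a log scale, with the 4 genes that had no peak within 10 kb as points on it and the 10 kb limit as a dashed line. Trp53, Cdkn2d and Cdkn2b lie at 12.3, 20.5 and 28.9 kb, and Cdkn1b at 287 kb.

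Measured from annotated starts, 3 of the 8 genes (37.5%, 8.52 to 75.5%) had a start inside a peak, namely Cdkn1a, Cdkn2c and Trp73, against 8.57% of the 17274 protein-coding genes with a start in the promoter table, a value just inside that interval. The same 3 had a peak within 2.5 kb of a start, against 10% of those genes. At each of the 3 the other start lay outside the peak, which was also the case for 222 of the 338 genes (65.7%) with 2 or more starts and at least 1 of them inside a peak. At Cdkn2c that other start was only 18 bp from the peak, a distance too short to be resolved. The windows with more CpG were touched by a peak more often over the whole genome. Of windows with at most 4 CpG 0.856% were touched, of those with 5 to 13 CpG 7.23%, of those with 14 to 25 CpG 11.6%, and of those with 26 or more CpG 14.3%. Of the 12 windows described here, 4 were in the class with 26 or more CpG, and 2 of these 4 were touched, the first starts of Trp73 and Cdkn2c. The 2 not touched were the first start of Cdkn2a and the start of Cdkn1b. The touched windows ranged from 8 to 39 CpG and the others from 2 to 45, so the 2 sets overlapped.

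**Figure D4:**
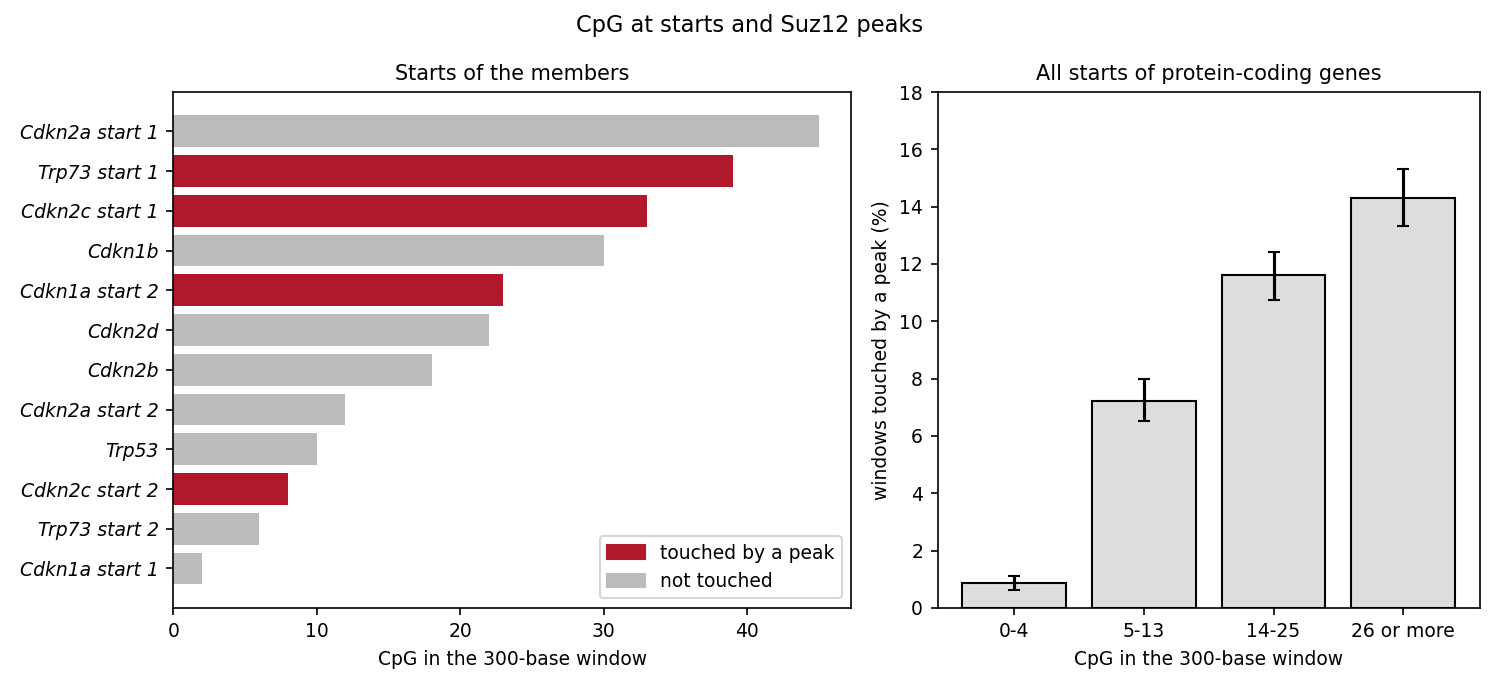
Left, CpG dinucleotides in the 300-base window of each of the 12 starts, red where a Suz12 peak touched the window and grey where none did. Right, percentage of windows touched by a peak in 4 classes of CpG number over all 21045 windows, with exact 95% binomial intervals. The left bars show red and grey windows side by side over most of the CpG range, from 45 at the first Cdkn2a start to 2 at the first Cdkn1a start, and the right bars run from 0.856% to 14.3%.

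The rest of the cell cycle and p53 pathway was described with 7 lists of 82 genes in all. Of these 82 genes, 8 (9.76%) had a peak within 10 kb, and the interval of 4.31 to 18.3% includes the 15.9% of all protein-coding genes. Among the remaining inhibitors and p53 relatives, Cdkn1c (p57), an imprinted CIP/KIP gene, was overlapped by a peak of score 2025, chr7:143458663-143461810, and had a second peak within 10 kb. Cdkn3, a phosphatase gene, and Trp63 (p63), the epithelial p53 relative, were 602 and 1076 kb from their nearest peak. Of the 3 p53 family genes, Trp73 was the 1 with a peak within 10 kb.

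The cyclins had a peak at 3 of 12 genes (25%), all of which were overlapped by one. Ccnd1, a D-type cyclin and partner of CDK4 and CDK6, had 3 peaks with a best score of 1954. Ccnd2 had 2 peaks with a best score of 1550, and Ccna1, a cyclin of the germline, had 1 with a score of 338. Ccna2, Ccnb1 and Ccnb2 had none, and the third D-type cyclin, Ccnd3, was 67.4 kb from a peak. None of the 6 kinase genes had a peak within 10 kb (0%, interval up to 45.9%). Cdk4, the target of the INK4 proteins, was the nearest at 11.5 kb from a peak at Agap2. Cdk6, its partner in that role, was 1225 kb from a peak, and Cdk1 and Cdk2 were at 45.1 and 228 kb.

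Of 13 RB and E2F genes 1 (7.69%) had a peak within 10 kb. It was E2f4, with a peak of score 455 that lay 6581 bp away at Exoc3l and 4931428F04Rik. E2f1, E2f2 and E2f3 had none, nor did Rb1, Rbl1 or Rbl2. Of the 9 genes for phosphatases, kinases and inhibitor turnover, 2 (22.2%) met the rule, Pkmyt1, a kinase that restrains CDK1, and Btrc, a subunit of a ubiquitin ligase. Pkmyt1 had 3 peaks, the nearest 2677 bp away and the best (score 588) 4682 bp away at Kremen2. Btrc had 1 peak (score 219), 7854 bp away, so neither gene was overlapped. Cdc25a, Cdc25b and Cdc25c had none.

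None of the 15 p53 regulators had a peak within 10 kb (0%, interval up to 21.8%), including Mdm2 at 58.7 kb, Atm at 235 kb, Atr at 12.1 kb and Chek1 at 705 kb. Of 24 p53 targets, 1 (4.17%, interval 0.105 to 21.1%) had a peak, namely Perp, a desmosome and apoptosis gene overlapped by a peak of score 168. Aen, Apaf1 and Bax had none, and the nearest of these 3, Aen, was 12.1 kb from a peak. These shares describe 1 library and small lists, and no test was made between them. The interval of each list included the 15.9% of all protein-coding genes.

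**Figure D5:**
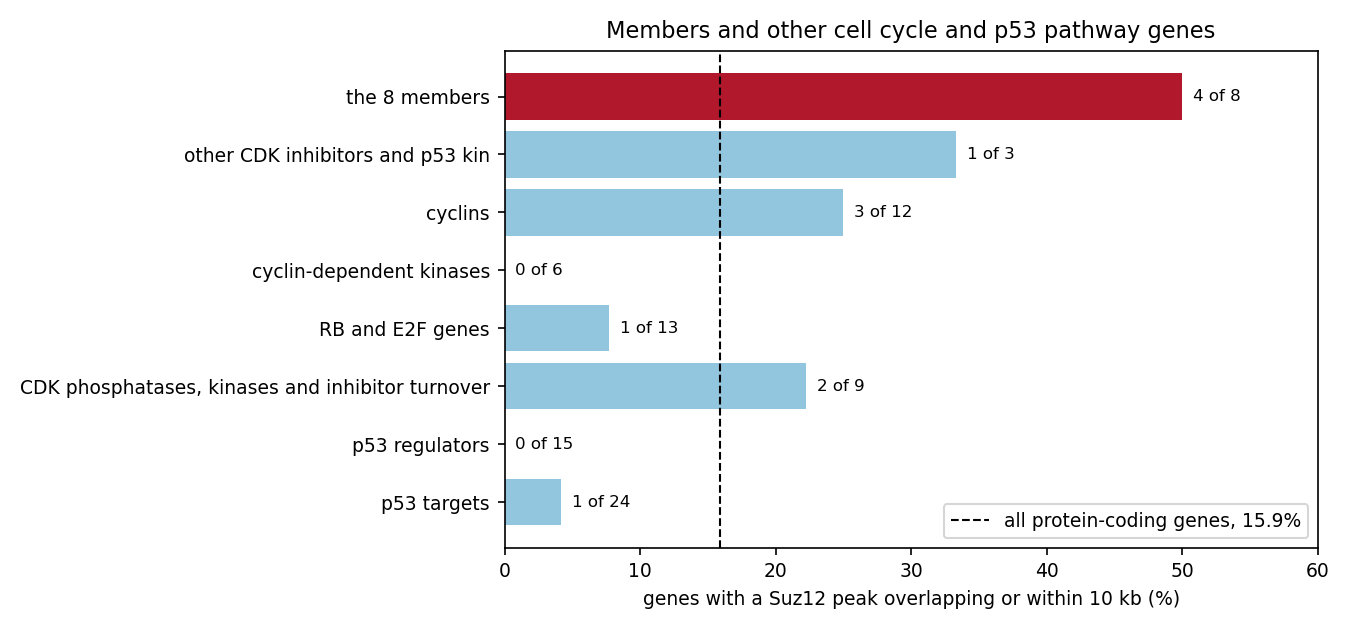
Percentage of genes with a Suz12 peak overlapping or within 10 kb for the 8 genes described here (red) and for 7 lists of other cell cycle and p53 pathway genes (blue), with counts beside the bars. The dashed line is the share of all protein-coding genes, 15.9%. The 8 genes stand at 4 of 8 and the p53 regulators and cyclin-dependent kinases at 0.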

How the data were processed

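Suz12 chromatin immunoprecipitation was analysed from 1 wild-type library at 72 h, per the labels. The authors used Bowtie, MACS and the build GRCm38 (mm10), per the submitters' processing notes. Not given in the sources used here were tool versions, settings, the control library and whether libraries were pooled. Positions and a score stand for each peak in the deposited list; MACS conventionally writes there a multiple of −log10 of the peak's p-value.

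Starts, counted from 0 in the list, were raised by 1. Distances are those between the nearest bases of a peak and a gene or start. Genes, strands, starts and sequences came from RefSeq tables of GRCm38.p6, with starts at 17274 of the 21631 protein-coding genes; all 8 genes and all 82 list genes matched by symbol. CpG and motifs were counted in windows of 300 bases. Intervals are exact (Clopper-Pearson) at 95% and treat genes as independent, although neighbours are not. The functions were tested on simulated data. Python 3.11.15, pandas 2.3.3 and scipy 1.17.1 were used.

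The genes and lists were chosen with earlier results of these data known, and the motifs and CpG classes after seeing the data. Named genes are all 8, their neighbours and, per list, the highest-scoring with a peak and the first without one in alphabetical order. Other list genes named (Ccnd3, Cdk6, Rb1, Rbl1, Rbl2 and Mdm2) were chosen for their role after the values were seen. A comparison of the proteins was planned but not run.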

Additional observations from a re-analysis of the deposited data

How the results depend on the processing

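The same 4 genes, Cdkn1a, Cdkn2a, Cdkn2c and Trp73, had a peak when it had to overlap the gene or lie within 2.5 kb of it. Within 25 kb there were 6, with Cdkn2d and Trp53. When low scores were left out, under double the lowest or under the median, 3 of the 4 remained, without Cdkn1a. Measured from starts, within 2.5 kb or by covering at least 50% of a window, there were 3, without Cdkn2a. Within 2.5 kb of a start the share of protein-coding genes in the promoter table was 10%. For the 50% limit no such share was computed, so that count has no background. The share of all protein-coding genes was 12.3% by overlap, 13.1% within 2.5 kb, 20.8% within 25 kb, 12.2% at double the lowest score and 8.71% at or above the median. By overlap and within 2.5 kb the share lay below the interval for 4 of 8 genes (15.7 to 84.3%). The 15.9% within 10 kb lay just inside it. For 3 of 8 genes the interval was 8.52 to 75.5%. It included the 12.2% and 8.71% at the 2 score limits and the 10% within 2.5 kb of a start. Because the genes were chosen with earlier results known, none of these intervals can tell whether peaks were more frequent at them. Over genes of any type in place of protein-coding genes, the share within 10 kb was 10%. Of the 82 pathway genes 5 had a peak by overlap, 5 within 2.5 kb, 15 within 25 kb, 6 at double the lowest score and 4 at or above the median. Apart from the change of gene type, these shifts follow from the wider or narrower limits themselves. No paired analysis was possible because each group has 1 library and a peak list was used for 1 of them. Depth is unknown, so genes without a peak cannot be called free of Suz12.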

Other observations

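Beyond the 10 kb rule, genes of the Dmrt family held the next Suz12 peaks on 1 side of the INK4 genes of chromosome 4. Dmrta1, a doublesex-related transcription factor gene, had its start inside a peak of score 882, 1767 bp wide, that lay 393 kb from Cdkn2a and 377 kb from Cdkn2b. Dmrta2, its relative active in forebrain development, lay beyond Faf1 under a peak 13627 bp wide with a score of 3100, 307 kb from Cdkn2c, which was wider than 99.6% of all peaks. On the other side of each locus the next peak was over 1 Mb away, at 1242 kb from Cdkn2a and 1277 kb from Cdkn2c. These genes were chosen after their values were seen, and the distances are values only.

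Among the 9 start windows with a p53 response element were those of Gtse1, which encodes a p53-binding protein, and Rps27l, a ribosomal protein gene known as a p53 target. Their starts held 28 and 29 CpG and lay 37.7 and 686 kb from the nearest Suz12 peak. Sptbn4, at 7.68 kb, was the nearest of the 9 apart from Cdkn1a, whose first start was 2668 bp from a peak. These genes too were named after their values were seen.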
